A study of Rattus norvegicus with 9 samples.

Results

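Rat pancreatic stellate cells grown on Matrigel were compared with the same kind of cells grown on collagen I. The comparison rests on 5 of the 9 arrays of the study, 2 with the protocol label Matrigel and 3 with the label Collagen, and these labels alone decided which arrays entered. The remaining 4 arrays are of cells on uncoated plastic, which entered the estimate of the spread between arrays, the choice of each gene's row and the dim level, and are given beside the results as a point of reference. All cells came from male Sprague Dawley rats and were isolated on a Nycodenz density gradient. Cells were seeded at a single number per 10 cm dish and kept for 72 hours in Iscove's medium with 10% foetal bovine serum, so the surface is the only treatment the labels vary. The labels name no dose, thickness or supplier lot of either coating and no passage, and they do not say whether the arrays came from separate animals or from pooled cells. The p-values therefore measure only the spread between these arrays, which may be technical. A letter in the sample titles, whose meaning is not stated, was A and S for the Matrigel arrays, A, P and Z for the collagen I arrays, and A, P, S and Z for the plastic arrays. The running numbers in the titles fall into consecutive blocks by surface, so the order they record and the surface cannot be told apart. Replicates are given below in the order of these letters, Matrigel replicate 1 being A and collagen I replicates 1, 2 and 3 being A, P and Z.

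Stellate cells are the fibroblast-like cells that surround the acini of the pancreas. While quiescent they hold retinoid in lipid droplets, and once activated they become contractile, matrix-producing myofibroblasts. Matrigel is a soft extract of tumour basement membrane, rich in laminin, collagen IV and nidogen, which cells read largely through laminin-binding integrins. Collagen I is the main fibrillar collagen of scar tissue, which cells read through collagen-binding integrins and discoidin domain receptors. On stiff surfaces integrin adhesion assembles actin stress fibres, which drive SRF and YAP, regulators of contractile genes.

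Expression was read on Affymetrix whole-transcript rat arrays as log2 RMA values, and the medians of the 9 arrays lay between 4.08 and 4.18. A mean under log2 4.25, the 40th percentile of mean level over all genes, is called dim below. Across all 14506 genes tested the Matrigel arrays correlated with each other at r = 0.991, the collagen I arrays at 0.993 to 0.995, and Matrigel with collagen I arrays at 0.984 to 0.990, as a description across genes that are not independent replicates. Of 20 measured stellate cell genes, 18 were above the dim level. The collagen chains Col1a1 (12.45 and 12.55 on Matrigel; 12.48, 12.94 and 12.85 on collagen I) and the intermediate filament gene Vim (12.29 and 12.09; 12.36, 12.63 and 12.67) were measured well above that level on every array. Gfap, an intermediate filament gene used to mark quiescent stellate cells, was dim on all 9 arrays, with values of 2.90 and 2.55 on Matrigel and 2.82, 2.60 and 2.73 on collagen I. The arrays also held RNA of other pancreatic cells. The insulin gene Ins1 read 12.17 and 11.34 on Matrigel and 11.20, 10.79 and 10.19 on collagen I, and the macrophage lysosomal gene Cd68 read 9.39 and 10.01 and 7.51, 7.21 and 8.85. In such bulk RNA, fewer cells of a type and less RNA per cell cannot be told apart.

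On Matrigel several contractile genes, the immediate-early factors Fos and Jun, the elastic fibre genes Mfap4, Mfap5 and Fbln5 and the cytokine genes Il11 and Lif were lower than on collagen I, and Fabp4, Cd36, Pparg and other genes of lipid uptake and storage were higher. In the fit over all 9 arrays, 387 of 14506 genes (2.67%) passed an adjusted p of 0.05 by limma with Benjamini-Hochberg adjustment. Of these, 176 (1.21% of all genes) were higher on Matrigel and 211 (1.45%) were lower, and a difference of 2-fold or more was measured in 98. The median difference over all genes was -0.02 on the log2 scale, with 6548 differences positive and 7949 negative. Of the 14506 genes, 2456 had an unadjusted p under 0.05 by limma. These values over all genes are the background for the counts of each list below. In each of the 387 called genes both Matrigel values lay on one side of all 3 collagen I values, as they did in 4276 genes or 29.5% of all genes tested. The plastic mean of the called genes was nearer to the collagen I mean than to the Matrigel mean for 148 of the 176 higher genes and for 153 of the 211 lower genes. With 2 arrays against 3, an exact permutation test of a single gene cannot reach 0.05, and a fit on these 5 arrays alone called 0 genes by limma (smallest adjusted p = 0.119), with 2094 genes at an unadjusted p under 0.05. The plastic arrays therefore carry the calls through the estimate of the spread. The title letter as a fixed block left 66 genes called, 51 of them among the 387, and as a random block 464. Counts by list under the fixed block are given in the section on processing. With 1 array left out in turn, between 68 and 352 genes were called, the fewest without collagen I replicate 2, and 44 genes passed in all 9 such fits. In the text below a difference is Matrigel minus collagen I on the log2 scale, ± its standard error from the fit.

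**Figure D1:**
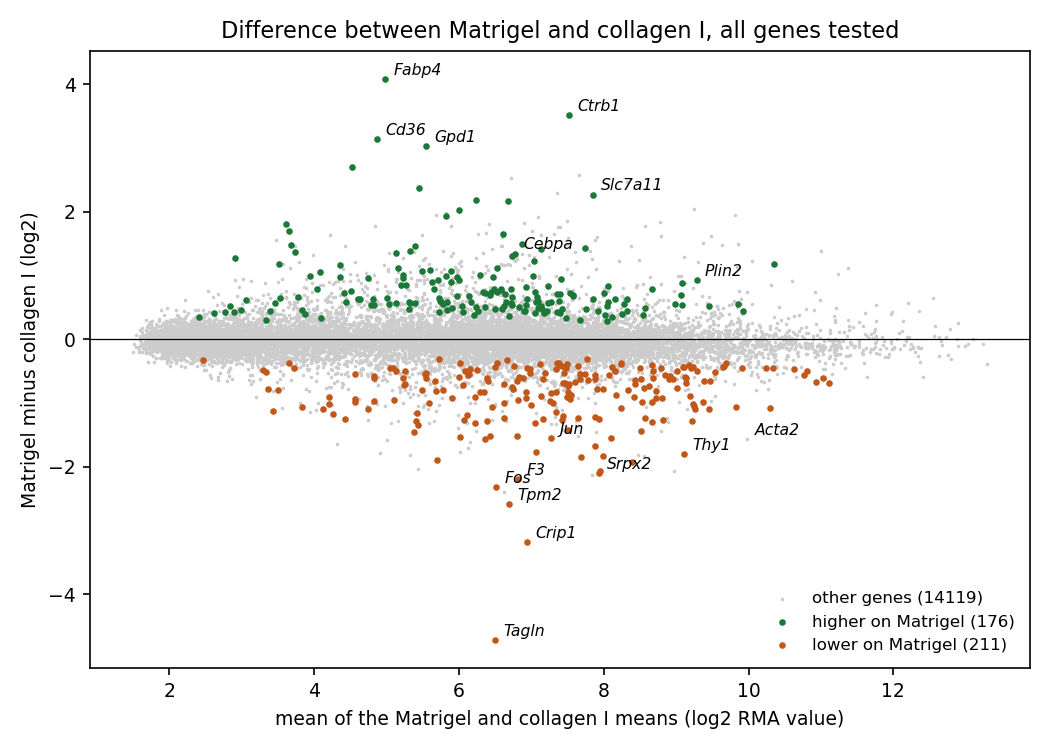
Each point is 1 of 14506 genes, with the mean of the Matrigel and collagen I means (log2 RMA value) on the horizontal axis and Matrigel minus collagen I (log2) on the vertical axis. Green points are the 176 genes called higher on Matrigel and orange points the 211 called lower; Tagln at -4.72 and Fabp4 at 4.09 lie farthest from 0, and Acta2 is among the grey points that did not pass.

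Several genes of the contractile apparatus were lower on Matrigel, while the activation marker Acta2 did not pass the test. All 27 measured members of the smooth muscle contractile list had a negative difference, with a list median of -0.54, and 8 of them were called lower and 0 higher, against 1.45% and 1.21% of all genes. Tagln, which encodes the actin-binding protein transgelin, read 4.17 and 4.10 on Matrigel against 8.12, 9.55 and 8.89 on collagen I. Both Matrigel values were dim and all 3 collagen I values were far above them, so the gene was at least 4.60 lower on the log2 scale, or at least 24.3-fold (adjusted p = 0.0138, limma). Plastic arrays ranged from 7.43 to 9.38 for Tagln, at the level of collagen I. Tpm2, the beta-tropomyosin of the thin filament, was 5.57 and 5.22 on Matrigel and 7.82, 8.25 and 7.88 on collagen I, a gap several times the spread within either surface (-2.59 ± 0.25, adjusted p = 0.00488). Crip1, a LIM domain protein gene in no list, had the second-largest called decrease, with 5.63 and 5.06 on Matrigel and 8.31, 8.67 and 8.59 on collagen I (-3.18 ± 0.32, adjusted p = 0.00582). Both genes passed in all 9 fits that left out 1 array, and so did the intermediate filament gene Des, at 4.85 and 4.83 on Matrigel and 6.09, 5.73 and 6.18 on collagen I (-1.16 ± 0.14, adjusted p = 0.0101). For Des the plastic arrays were higher again, from 6.65 to 6.89.

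The remaining called contractile genes were the myosin light chain gene Myl9 (-1.54 ± 0.26, adjusted p = 0.0251), the LIM protein gene Csrp1 (-1.07 ± 0.17, adjusted p = 0.0198), the non-muscle myosin heavy chain gene Myh10 (-0.98 ± 0.14, adjusted p = 0.0153), the caldesmon gene Cald1 (-0.66 ± 0.11, adjusted p = 0.0261) and Csrp2 (-0.60 ± 0.12, adjusted p = 0.0451). Tagln lost the call without Matrigel replicate 1 or collagen I replicate 2, Myh10 without Matrigel replicate 2 or collagen I replicate 2 and Myl9 and Csrp1 without Matrigel replicates 1 or 2 or collagen I replicates 2 or 3 (adjusted p 0.0501 to 0.11). Cald1 kept the call only without collagen I replicate 1 or plastic replicates 2 or 3 and Csrp2 only without collagen I replicate 1 with 1 array left out (adjusted p 0.0501 to 0.157 otherwise). Array weights, a test of every row of the table and robust moderation with a trend also ended the call of Csrp2. The number of called members was between 2 and 8 with 1 array left out, with 2 without collagen I replicate 2, 3 without either Matrigel array and 4 without collagen I replicate 3. Acta2, which encodes the smooth muscle actin by which activated stellate cells are recognised, read 9.43 and 8.95 on Matrigel and 10.13, 11.33 and 10.83 on collagen I. Its 2 Matrigel values lay below every collagen I and plastic value, but the collagen I arrays spread over more than 1 log2 unit and the difference did not pass (-1.57 ± 0.41, adjusted p = 0.0919). Calponin, encoded by Cnn1, spread in the same way, with 4.47, 5.83 and 5.13 on collagen I against dim values of 3.46 and 3.53 on Matrigel (adjusted p = 0.162). Collagen I replicate 2 held the highest values of Tagln, Acta2, Cnn1 and Tpm2, and collagen I replicate 1 the lowest of Tagln, Acta2 and Cnn1.

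**Figure D2:**
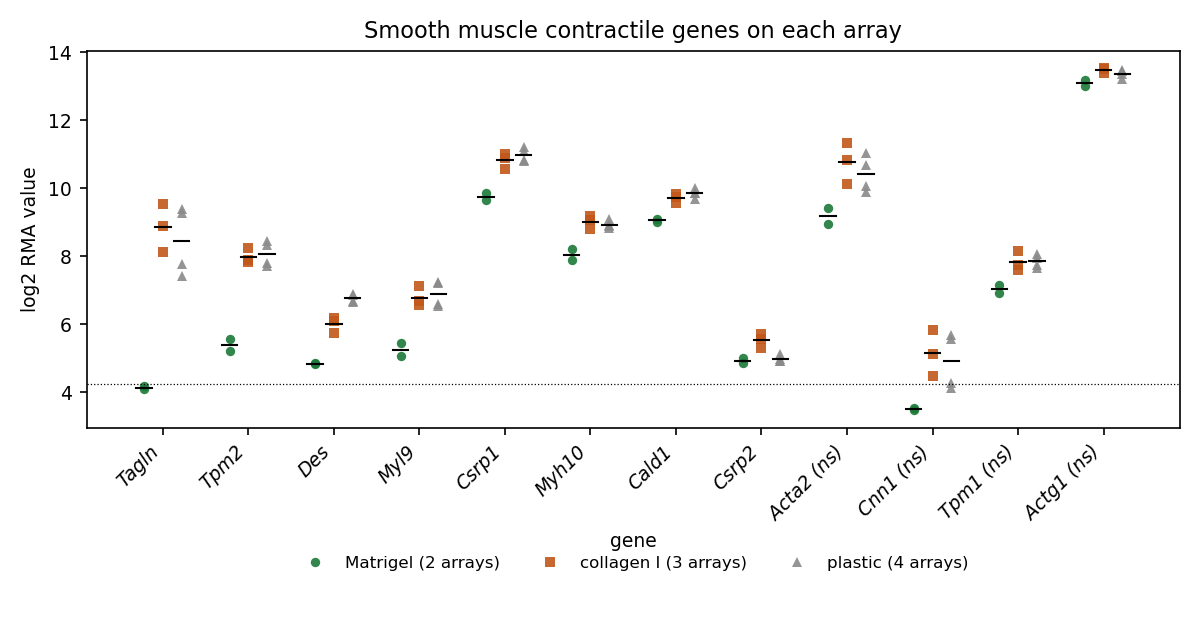
Log2 RMA values (vertical axis) of 12 contractile genes on each array, with Matrigel as circles, collagen I as squares, plastic as triangles, short lines for group means, a dotted line at the dim level of 4.25, and ns for genes that did not pass. The Matrigel points lie below every collagen I point in all 12 genes, and both Tagln points on Matrigel fall under the dotted line.

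Some genes that couple the actin skeleton to adhesions were called lower too. Of 34 measured focal adhesion and actin regulator genes 6 were called lower and 0 higher, against 1.45% and 1.21% of all genes. The median difference was -0.30, and 29 of 34 differences were negative, against 7949 of all 14506. Pdlim5, which encodes a PDZ and LIM domain protein bound to actinin, read 7.05 and 6.54 on Matrigel and 7.90, 8.39 and 8.38 on collagen I (-1.43 ± 0.25, adjusted p = 0.0277). Nedd9, an adapter downstream of focal adhesion kinase (-0.94 ± 0.17, adjusted p = 0.0313), Fermt2, the integrin activator kindlin-2 (-0.78 ± 0.14, adjusted p = 0.0292), and Vcl, which encodes the talin-binding protein vinculin (-0.90 ± 0.18, adjusted p = 0.0439), were lower as well, followed by the small GTPase gene Rhob (-0.65 ± 0.13, adjusted p = 0.0382) and the parvin gene Parva (-0.38 ± 0.08, adjusted p = 0.0493). Pdlim5 lost the call without Matrigel replicates 1 or 2, collagen I replicates 2 or 3 or plastic replicate 1 (adjusted p 0.0531 to 0.12). Nedd9 kept the call only without Matrigel replicate 2, collagen I replicate 3 or plastic replicate 3, Fermt2 only without plastic replicates 2, 3 or 4, Vcl only without collagen I replicate 1 or plastic replicate 3, Rhob in no such fit and Parva only without Matrigel replicate 1 with 1 array left out (adjusted p 0.0502 to 0.179 otherwise). Array weights and a test of every row of the table also ended the call of Vcl, Rhob and Parva and re-centring and repeated quantile normalization ended the call of Parva. The list held between 0 and 4 called members with 1 array left out, with 0 without collagen I replicate 2 or plastic replicate 1. Hippo and SRF target genes gave 4 called lower of 27 measured and 0 higher, against 1.45% and 1.21% of all genes, with a median of -0.38. Gadd45b, a stress-inducible gene, was 6.42 and 6.64 on Matrigel and 7.72, 7.83 and 7.79 on collagen I (-1.25 ± 0.11, adjusted p = 0.00469) and passed in all 9 fits that left out 1 array. Lats2, the kinase that restrains YAP, followed (-0.99 ± 0.13, adjusted p = 0.0138). F3, which encodes tissue factor, was 5.62 and 5.82 on Matrigel and 7.19, 7.51 and 9.04 on collagen I, with replicate 3 well above the other collagen I arrays and the plastic arrays higher still, from 10.72 to 11.09 (-2.19 ± 0.45, adjusted p = 0.0448). Fstl1, a secreted follistatin-like glycoprotein, had a smaller difference (-0.46 ± 0.09, adjusted p = 0.0357). Lats2 lost the call without collagen I replicate 2 (adjusted p = 0.0531). F3 kept the call only without collagen I replicates 1 or 3 and Fstl1 only without plastic replicates 3 or 4 with 1 array left out (adjusted p 0.0515 to 0.148 otherwise). Array weights also ended the call of F3 and Fstl1 and a test of every row of the table ended the call of F3. With 1 array left out, the list held 1 called member without collagen I replicate 2, 2 without Matrigel replicate 2 or plastic replicate 1 or 2, and 3 or 4 otherwise. The direct YAP targets Ccn2 (7.87 and 7.26 on Matrigel; 8.81, 9.56 and 9.78 on collagen I; adjusted p = 0.137) and Ccn1 (9.99 and 10.55; 10.28, 10.95 and 10.91; adjusted p = 0.403) did not pass.

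Few of the receptors through which cells bind these matrices passed the test. Of 26 measured matrix receptor genes 1 was called, against the 2.67% of all genes, and the median difference was -0.08. Among collagen-binding receptors, Itga1 read 8.46 and 8.44 on Matrigel and 8.54, 8.81 and 8.77 on collagen I, with a 95% interval of the difference from -0.50 to -0.01. Itga2 read 9.35 and 8.54 and 8.92, 9.18 and 9.47 (interval from -0.77 to 0.27), and Ddr2, the collagen receptor kinase of fibroblasts, read 10.74 and 10.53 and 10.56, 10.39 and 10.25 (interval from -0.05 to 0.52). Itga11 was 7.60 and 7.65 on Matrigel and 8.34, 8.65 and 7.68 on collagen I, and its interval, from -1.23 to 0.02, reaches past a 2-fold difference. Ddr1 was 6.16 and 6.48 on Matrigel and 6.55, 6.77 and 5.90 on collagen I, while the plastic arrays were higher than both, from 8.01 to 8.38. Of the 5 measured laminin-binding receptor genes 0 were called. The brightest was Rpsa, a ribosomal protein gene whose product also serves as a laminin receptor, at 11.71 and 11.60 on Matrigel and 11.93, 11.74 and 11.94 on collagen I (interval from -0.43 to 0.01), followed by the Lutheran glycoprotein gene Bcam at 5.16 and 5.11 and 5.20, 5.12 and 5.16 (interval from -0.18 to 0.12). Itga7 lay at the dim level (4.35 and 4.41; 4.57, 4.29 and 4.29), and the subunits Itga6 and Itgb4 were dim on both surfaces. The shared subunit Itgb1 read 11.45 and 11.55 on Matrigel and 11.60, 11.66 and 11.72 on collagen I (interval from -0.33 to 0.00). The largest difference in the list was that of Itgb8, a subunit of the integrin that activates latent TGF-beta, with 7.17 and 8.53 on Matrigel and 6.62, 5.99 and 5.86 on collagen I, where Matrigel replicate 2 stood well above replicate 1 (1.69 ± 0.40, adjusted p = 0.0688). The fibronectin receptor subunit Itga5 read 10.38 and 9.83 and 10.07, 9.83 and 10.73 (interval from -0.72 to 0.52), and the vitronectin receptor subunits Itgb3 7.94 and 7.54 and 7.21, 8.19 and 9.02 (interval from -1.42 to 0.62) and Itgb5 9.30 and 8.64 and 9.26, 9.31 and 9.31 (interval from -0.79 to 0.14). The groups overlapped for all 3 subunits. Itga4, Itga10, Itgb6 and Lair1 had dim means on both surfaces. The collagen-internalizing receptor gene Mrc2 (0.13 ± 0.07), the hyaluronan receptor gene Cd44 (-0.19 ± 0.17), the thrombospondin receptor gene Cd47 (-0.15 ± 0.08) and the other syndecan genes Sdc1 (0.10 ± 0.21), Sdc3 (0.34 ± 0.13) and Sdc4 (0.05 ± 0.21) did not pass. The called member was the proteoglycan gene Sdc2, at 8.49 and 8.28 and 9.09, 9.09 and 8.76 (-0.60 ± 0.12, adjusted p = 0.0426). Sdc2 kept the call only without collagen I replicate 3 with 1 array left out (adjusted p 0.0515 to 0.168 otherwise). A test of every row of the table and repeated quantile normalization also ended the call of Sdc2.

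Several immediate-early factors, which serum and adhesion induce within minutes, were lower on Matrigel than on collagen I. Of 41 measured genes of this list 8 were called lower on Matrigel and 0 higher, against 1.45% and 1.21% of all genes, with a median of -0.20. Fos, a subunit of the AP-1 transcription factor, read 5.13 and 5.58 on Matrigel and 7.70, 7.94 and 7.37 on collagen I. The groups lay far apart compared with the spread within either, and the difference had one of the smallest adjusted p of all genes (-2.32 ± 0.19, adjusted p = 0.0038, limma). Plastic arrays lay from 4.98 to 5.36, level with Matrigel. Jun, the partner of Fos in AP-1, showed the same order, with 6.59 and 6.40 on Matrigel, 7.80, 8.11 and 8.24 on collagen I and from 5.59 to 6.09 on plastic (-1.56 ± 0.17, adjusted p = 0.00818). Nr4a2, an orphan nuclear receptor gene, read 5.63 and 5.71 on Matrigel and 6.85, 7.54 and 7.17 on collagen I, with plastic lower than both, from 5.05 to 5.26 (-1.51 ± 0.17, adjusted p = 0.00873). Fos, Jun and Nr4a2 passed in all 9 fits that left out 1 array.

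Its relative Nr4a3 was 4.55 and 4.95 on Matrigel and 6.19, 7.18 and 6.58 on collagen I, but there the plastic arrays, from 6.13 to 6.32, sat with collagen I (-1.90 ± 0.25, adjusted p = 0.0138). Klf4 and Klf2, zinc finger factors, were also lower on Matrigel (-1.32 ± 0.19, adjusted p = 0.0153; -1.34 ± 0.24, adjusted p = 0.0294), and Klf4 was highest on plastic, from 8.47 to 9.01. The small Maf factor gene Mafk (-0.60 ± 0.09, adjusted p = 0.0158) and Ier5 (-0.45 ± 0.08, adjusted p = 0.0267) completed the called members. Nr4a3 lost the call without Matrigel replicate 1, Klf4 without Matrigel replicate 2 or collagen I replicate 2, Klf2 without Matrigel replicates 1 or 2, collagen I replicates 2 or 3 or plastic replicate 1, Mafk without Matrigel replicates 1 or 2 or collagen I replicate 2 and Ier5 without Matrigel replicates 1 or 2 or collagen I replicates 1, 2 or 3 (adjusted p 0.0534 to 0.109). Array weights also ended the call of Klf2. Without Matrigel replicate 1 or collagen I replicate 2 the list held 4 called members, and 6 to 8 without any other single array. Not every rapid-response gene followed. Egr1 read 9.72 and 10.27 on Matrigel and 9.10, 9.65 and 9.62 on collagen I (0.54 ± 0.20, adjusted p = 0.224), Ier2 6.89 and 6.83 and 6.98, 7.14 and 6.85 (-0.13 ± 0.11, adjusted p = 0.606), and the ERK phosphatase gene Dusp1 8.54 and 9.01 and 9.55, 9.75 and 9.35 (-0.77 ± 0.17, adjusted p = 0.057), of which none passed.

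The cytokine genes that passed were all lower on Matrigel. Il11, a cytokine of the IL-6 family that acts on fibroblasts, was 5.84 and 5.64 on Matrigel, 7.01, 7.37 and 6.72 on collagen I and from 4.72 to 4.96 on plastic (-1.29 ± 0.17, adjusted p = 0.0138). Lif, of the same family, read 9.15 and 8.68 on Matrigel and 9.84, 10.14 and 10.04 on collagen I (-1.09 ± 0.19, adjusted p = 0.0259), and both coatings were more than 2 log2 units above plastic, from 5.71 to 6.25. Il1a (-1.84 ± 0.38, adjusted p = 0.0448) and Il33 (-0.98 ± 0.20, adjusted p = 0.0421), alarmins kept inside the cell until damage, made up the 4 called lower among 42 measured cytokine and receptor genes, of which 0 were higher and the median was -0.03. Il6 was below collagen I in both Matrigel arrays (8.45 and 8.75; 9.32, 9.46 and 9.33) without passing (-0.77 ± 0.22, adjusted p = 0.113). Of 42 chemokine and acute inflammation genes the NF-kappaB cofactor gene Nfkbiz alone was called, at 8.55 and 8.92 on Matrigel and 9.55, 9.70 and 9.65 on collagen I (-0.89 ± 0.13, adjusted p = 0.0145). The chemokine genes Ccl2 and Cxcl1 differed by -0.26 ± 0.11 and -0.37 ± 0.11. The share called was 9.52% of the cytokine and receptor list and 2.38% of the chemokine list, the latter near the 2.67% of all genes. The title letter as a fixed block left 0 cytokine and receptor genes called. Il11 lost the call without Matrigel replicate 2, Lif without Matrigel replicate 2 or collagen I replicates 2 or 3 and Nfkbiz without Matrigel replicate 1 or collagen I replicate 2 (adjusted p 0.0532 to 0.106). Il1a kept the call only without plastic replicate 3 and Il33 only without plastic replicates 2 or 3 with 1 array left out (adjusted p 0.0534 to 0.171 otherwise). Array weights and a test of every row of the table also ended the call of Il1a and Il33. With 1 array left out the cytokine list held from 0 (without Matrigel replicate 2) to 5 (without plastic replicate 3) called members.

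In the TGF-beta and BMP list 5 of 45 measured genes were called lower and 0 higher, against 1.45% and 1.21% of all genes. The median was -0.09, and 0 genes of the list were called with the title letter as a fixed block. The ligand Bmp6 was 5.76 and 5.26 on Matrigel and 6.48, 6.87 and 6.74 on collagen I, both far below plastic, from 8.19 to 8.65 (-1.19 ± 0.19, adjusted p = 0.0194). Grem1, a secreted BMP antagonist, read 7.63 and 7.95 and 8.99, 9.85 and 8.87 (-1.44 ± 0.27, adjusted p = 0.0352), and Fstl3, an activin antagonist, 6.54 and 6.38 and 7.26, 7.39 and 7.52 (-0.93 ± 0.15, adjusted p = 0.0222). The BMP target gene Id2 (-0.81 ± 0.14, adjusted p = 0.0251) and Ltbp1, which tethers latent TGF-beta to the matrix (-0.56 ± 0.12, adjusted p = 0.049), completed the called members. Bmp6 lost the call without Matrigel replicate 2 or collagen I replicates 2 or 3, Fstl3 without Matrigel replicates 1 or 2 or collagen I replicates 2 or 3 and Id2 without Matrigel replicates 1 or 2, collagen I replicates 1 or 2 or plastic replicate 1 (adjusted p 0.0512 to 0.106). Grem1 kept the call only without collagen I replicates 2 or 3 and Ltbp1 in no such fit with 1 array left out (adjusted p 0.0514 to 0.185 otherwise). Array weights also ended the call of Grem1 and Ltbp1 and a test of every row of the table and repeated quantile normalization ended the call of Ltbp1. The list held 0 called members without Matrigel replicate 2 and from 1 to 4 without any other single array. Tgfb1 itself spread widely on both surfaces, with 10.33 and 9.60 on Matrigel and 10.19, 10.39 and 11.24 on collagen I, and its groups overlapped (-0.65 ± 0.38, adjusted p = 0.438). Of 35 Wnt ligands and antagonists, Wnt5a, a non-canonical ligand, was lower (6.86 and 6.74; 7.58, 8.06 and 8.54; -1.26 ± 0.23, adjusted p = 0.0317) and Sfrp5, a secreted antagonist, was called higher by at least 0.02 from values at the dim level (adjusted p = 0.0382). The share called was 5.71% of the Wnt list, against 2.67% of all genes. Wnt5a kept the call only without collagen I replicates 1 or 3 or plastic replicate 3 and Sfrp5 only without plastic replicate 3 with 1 array left out (adjusted p 0.0532 to 0.119 otherwise). Array weights, re-centring, repeated quantile normalization and robust moderation with a trend also ended the call of Sfrp5. Of 55 measured growth factor ligands and receptors 0 were called by limma, with 9 at an unadjusted p under 0.05, against 2456 of all 14506 genes.

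Some genes of the matrix that stellate cells make passed the test, most of them lower on Matrigel. Of 41 measured proteoglycan, elastic fibre and matricellular genes 6 were called lower and 1 higher, against 1.45% and 1.21% of all genes, with a median of -0.39. Mfap4, a microfibril-associated glycoprotein gene, read 5.87 and 6.50 on Matrigel and 7.75, 8.40 and 7.72 on collagen I (-1.77 ± 0.25, adjusted p = 0.0145). Mfap5, another microfibril component, was 8.69 and 8.74 and 9.73, 10.14 and 9.55, with plastic above both, from 10.25 to 10.55 (-1.09 ± 0.16, adjusted p = 0.0153). Fbln5, an elastogenic fibulin, was 7.51 and 7.15 and 9.16, 9.26 and 8.22 (-1.55 ± 0.27, adjusted p = 0.0272), collagen I replicate 3 being the lowest of its group. Has1, a hyaluronan synthase whose Matrigel values were dim, was at least 0.79 lower (adjusted p = 0.0261), Hapln3 was dim on both surfaces, and Ltbp1 was given above. The member called higher was Matn4, a matrilin, with 7.63 and 7.69 on Matrigel against 6.88, 6.02 and 6.37 on collagen I (1.23 ± 0.22, adjusted p = 0.0292). Mfap4 lost the call without Matrigel replicate 1, Mfap5 without Matrigel replicates 1 or 2 and Has1 without Matrigel replicates 1 or 2, collagen I replicate 2 or plastic replicates 1 or 4 (adjusted p 0.0514 to 0.102). Fbln5 kept the call only without collagen I replicate 3 or plastic replicate 3, Hapln3 only without Matrigel replicate 2 and Matn4 only without collagen I replicate 1 or plastic replicates 2 or 3 with 1 array left out (adjusted p 0.0504 to 0.147 otherwise). Array weights also ended the call of Hapln3 and Matn4 and a test of every row of the table ended the call of Hapln3. The list held from 0 called members (without Matrigel replicate 1) to 6 (without plastic replicate 3).

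Genes of 2 matrix-associated secreted proteins outside the lists ranked among the largest decreases. Srpx2, a sushi-repeat protein, read 7.17 and 6.59 on Matrigel and 8.75, 9.11 and 9.10 on collagen I, while plastic, from 6.43 to 6.86, was at the Matrigel level (-2.11 ± 0.20, adjusted p = 0.00469), and it passed in all 9 fits that left out 1 array. Spon2, the spondin mindin, read 6.91 and 6.93 and 8.54, 9.64 and 8.78, and there plastic was highest, from 9.84 to 10.89 (-2.07 ± 0.36, adjusted p = 0.0276). Spon2 kept the call only without collagen I replicate 1 or plastic replicates 2 or 3 with 1 array left out (adjusted p 0.0533 to 0.102 otherwise).

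Of 35 fibrillar collagen and collagen-processing genes 3 were called lower and 0 higher, against 1.45% and 1.21% of all genes, with a median of -0.21. They were the crosslinking oxidase genes Lox (10.49 and 10.71; 11.13, 11.21 and 11.46; -0.67 ± 0.12, adjusted p = 0.0283) and Loxl3 (7.48 and 7.67; 8.14, 8.20 and 8.25; -0.62 ± 0.08, adjusted p = 0.0138) and the procollagen peptidase gene Adamts14 (-0.65 ± 0.14, adjusted p = 0.0474). Loxl3 lost the call without collagen I replicate 2 (adjusted p = 0.0501). Lox kept the call only without Matrigel replicate 2, collagen I replicate 1 or plastic replicate 3 and Adamts14 only without Matrigel replicate 2 with 1 array left out (adjusted p 0.0507 to 0.137 otherwise). Array weights, a test of every row of the table and robust moderation with a trend also ended the call of Adamts14. Without Matrigel replicate 1 the measured difference of Adamts14 was -0.41 in place of -0.65. The list held 0 called members without collagen I replicate 2, 1 without Matrigel replicate 1 or plastic replicate 1, 2 or 4, and 2 or 3 otherwise. The chains Col1a1 (interval of the difference from -0.62 to 0.10), Col1a2 (from -0.49 to -0.02) and Col3a1 (from -1.10 to -0.11) did not pass. Of 17 measured basement membrane genes 0 were called by limma, with 6 at an unadjusted p under 0.05 in both directions, against 2456 of all 14506 genes. The type IV collagen gene Col4a1 read 10.42 and 10.91 on Matrigel and 10.28, 10.28 and 9.94 on collagen I (0.50 ± 0.17, adjusted p = 0.189). The laminin chain gene Lama5 read 5.57 and 6.09 and 5.25, 4.97 and 4.76 (0.84 ± 0.21, adjusted p = 0.0826). Another laminin chain gene, Lamb3, went the other way, with 4.71 and 4.12 and 5.59, 5.92 and 7.19 (-1.82 ± 0.44, adjusted p = 0.0701). The fibulin gene Fbln2 read 6.60 and 6.95 and 8.54, 8.40 and 9.79 (-2.14 ± 0.48, adjusted p = 0.0589). Among 46 proteases and inhibitors, Mmp23 (-1.04 ± 0.18, adjusted p = 0.0288) and Serpinf1, which encodes PEDF (-0.57 ± 0.10, adjusted p = 0.0276), were called lower and Mmp19 (0.69 ± 0.14, adjusted p = 0.0405) higher. The share called was 6.52% of this list, against 2.67% of all genes. Mmp23 lost the call without Matrigel replicate 1, collagen I replicates 1 or 2 or plastic replicates 1 or 4 and Serpinf1 without Matrigel replicate 2, collagen I replicates 1 or 2 or plastic replicates 1 or 2 (adjusted p 0.0514 to 0.113). Mmp19 kept the call only without collagen I replicate 3 with 1 array left out (adjusted p 0.0522 to 0.125 otherwise). Array weights and a test of every row of the table also ended the call of Mmp19. The gelatinase gene Mmp2 read 12.76 and 13.00 and 12.97, 12.94 and 12.71, and the inhibitor gene Timp1 11.55 and 12.32 and 11.89, 12.24 and 12.08, with overlapping groups. The protease list held 0 called members without collagen I replicate 1 or 2 or plastic replicate 1, and from 1 to 3 otherwise.

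The surface receptor genes among the largest decreases included Thy1, the fibroblast marker CD90, at 8.31 and 8.10 on Matrigel and 9.96, 10.23 and 9.83 on collagen I (-1.80 ± 0.22, adjusted p = 0.0101), and Avpr1a, the vasopressin receptor that triggers calcium release and contraction, at 5.15 and 5.98 and 7.16, 6.99 and 7.28 (-1.57 ± 0.22, adjusted p = 0.0145). Plastic arrays were at the collagen I level for Thy1, from 9.96 to 10.60, and above it for Avpr1a, from 8.46 to 8.83. Both passed in all 9 fits that left out 1 array. F2r, which encodes the thrombin receptor PAR1, was 7.52 and 6.56 and 8.20, 9.09 and 8.87 (-1.68 ± 0.35, adjusted p = 0.0441). F2r kept the call only without Matrigel replicate 1 or collagen I replicate 1 with 1 array left out (adjusted p 0.0511 to 0.177 otherwise). Array weights and a test of every row of the table also ended the call of F2r.

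**Figure D3:**
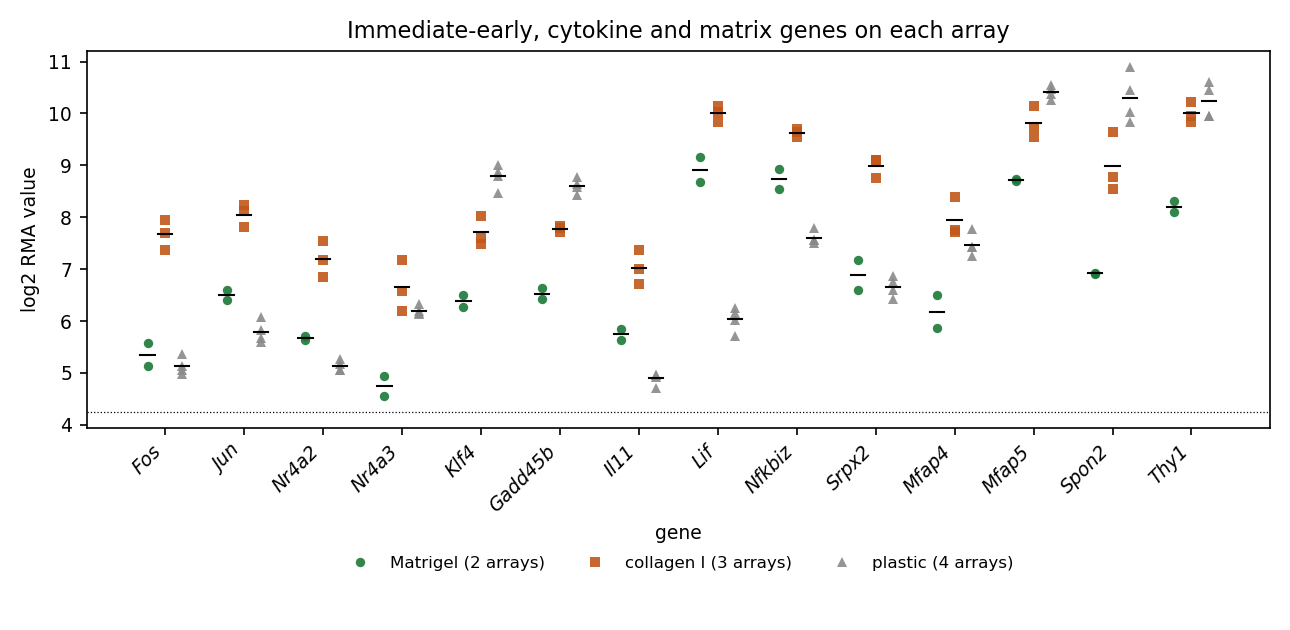
Log2 RMA values (vertical axis) of 14 immediate-early, cytokine, matrix and surface genes on each array, with Matrigel as circles, collagen I as squares, plastic as triangles, short lines for group means and a dotted line at the dim level of 4.25. In every gene the Matrigel points lie below the collagen I points; the plastic points lie near or below Matrigel for Fos, Jun, Nr4a2, Il11 and Srpx2 and near or above collagen I for Nr4a3, Klf4, Mfap5, Spon2 and Thy1.

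The list with the most genes called higher on Matrigel was that of lipid uptake and storage. Of 43 measured genes of the lipid droplet and PPAR-gamma list 8 were called higher and 1 lower, against 1.21% and 1.45% of all genes. The median was 0.44, and 35 of 43 differences were positive, against 6548 of all 14506. Fabp4, the fatty acid carrier of adipocytes and macrophages, read 5.97 and 8.08 on Matrigel and 3.34, 2.81 and 2.67 on collagen I. All collagen I values were dim and the 2 Matrigel values were apart from each other by more than 2 log2 units, so the gene was at least 2.78 higher, or at least 6.87-fold (adjusted p = 0.0148, limma). Cd36, a fatty acid translocase, read 5.84 and 7.02 and 3.11, 3.05 and 3.72 and was at least 2.19 higher (adjusted p = 0.0183). Gpd1, which makes the glycerol backbone of triglycerides and stood in no list, was 6.59 and 7.52 on Matrigel against 4.18, 4.19 and 3.72 on collagen I, at least 2.81 higher (adjusted p = 0.00634). Plastic values of Fabp4 ran from 2.58 to 4.03 and those of Gpd1 from 3.73 to 4.54. In all 3 genes Matrigel replicate 2 was the higher of the pair.

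The adipogenic factors Cebpa and Pparg were called higher as well. Cebpa, a transcription factor of fat and myeloid cells, read 7.48 and 7.42 on Matrigel and 6.43, 6.09 and 5.79 on collagen I (1.35 ± 0.17, adjusted p = 0.0118). Pparg, the nuclear receptor that drives fat storage, read 6.50 and 7.07 and 5.51, 4.55 and 4.47 (1.94 ± 0.40, adjusted p = 0.0441). Plin2, which coats lipid droplets, was 9.78 and 9.72 and 8.99, 8.58 and 8.87, with plastic lower again, from 7.72 to 7.98 (0.93 ± 0.13, adjusted p = 0.0145). Pdk4, a kinase that turns off pyruvate oxidation, was at least 0.70 higher (adjusted p = 0.0138), Acsl1, which activates fatty acids, was higher by 0.70 ± 0.11 (adjusted p = 0.0194), and the triglyceride lipase gene Pnpla2 by 0.74 ± 0.13 (adjusted p = 0.0294). The member called lower was Plin3, another droplet coat gene (-0.65 ± 0.11, adjusted p = 0.025). Gpd1, Cebpa and Pdk4 passed in all 9 fits that left out 1 array. Fabp4 lost the call without collagen I replicate 2, Cd36 without Matrigel replicate 2 or collagen I replicates 1 or 2, Plin2 without Matrigel replicate 1, Acsl1 without Matrigel replicate 2 or collagen I replicates 2 or 3 and Plin3 without Matrigel replicate 1, collagen I replicates 1, 2 or 3 or plastic replicate 1 (adjusted p 0.0534 to 0.0986). Pparg kept the call only without collagen I replicate 1 or plastic replicate 3 and Pnpla2 only without plastic replicates 2, 3 or 4 with 1 array left out (adjusted p 0.0516 to 0.18 otherwise). Array weights also ended the call of Pparg and Pnpla2 and a test of every row of the table ended the call of Pparg. The list held 3 called members without collagen I replicate 2, 5 without collagen I replicate 3, and from 6 to 9 without any other single array.

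Of 16 measured adipocyte markers 5 were called higher, against 1.21% of all genes. Of these Cebpa, Fabp4, Cd36 and Pparg also stand in the lipid list, and the fifth was the complement factor gene Cfd (1.36 ± 0.29, adjusted p = 0.0487). Cfd kept the call only without plastic replicates 2 or 3 with 1 array left out (adjusted p 0.0523 to 0.196 otherwise). Array weights and a test of every row of the table also ended the call of Cfd. With the title letter as a fixed block, Fabp4 and Cd36 kept the call, and Cebpa, Pparg and Cfd lost it. The adipocyte hormone gene Adipoq was dim on every array (2.92 and 2.57 on Matrigel; 2.62, 2.69 and 2.50 on collagen I), and the droplet coat gene Plin1 did not pass (0.57 ± 0.17, adjusted p = 0.128). With 1 array left out 1 adipocyte marker was called without collagen I replicate 2, 2 without Matrigel replicate 2, 3 without collagen I replicate 1 or 3 or plastic replicate 1 or 4, and 4 or 5 otherwise. Of 23 retinoid genes, Rbp4, the carrier of retinol in plasma, was called higher, at 6.40 and 7.63 and 5.28, 4.94 and 4.76 (2.02 ± 0.35, adjusted p = 0.0259). It was the only call of that list, a share of 4.35% against 2.67% of all genes. Rbp4 lost the call without Matrigel replicate 2, collagen I replicates 2 or 3 or plastic replicates 1 or 4 (adjusted p 0.0517 to 0.0902). Lrat, which forms the retinyl esters of quiescent stellate cells, spread from dim values upward on all surfaces (3.21 and 4.68 on Matrigel; 3.39, 3.53 and 2.25 on collagen I) and did not pass (adjusted p = 0.588).

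Most macrophage markers had positive differences, and none passed the test. Of 31 measured macrophage markers 29 had a positive difference, against 6548 of all 14506 genes, and the list median was 1.06. By limma 0 were called and 15 had an unadjusted p under 0.05, against 2456 of all genes. The mean of the list was 6.76 and 7.14 on the Matrigel arrays and 5.72, 5.70 and 6.46 on the collagen I arrays, with collagen I replicate 3 well above replicates 1 and 2. On plastic the list mean was 6.41, 5.64, 6.79 and 5.82, overlapping both coatings. Csf1r, the receptor that macrophages need to survive, read 8.47 and 8.86 on Matrigel and 6.83, 6.73 and 7.74 on collagen I (1.56 ± 0.40, adjusted p = 0.0876). Cd36, Fabp4, Pparg, Cebpa and Plin2 are also expressed by macrophages, and the part of these cells in the lipid genes was not tested. On plastic, where all these values were dim, Fabp4 read 3.21, 2.58, 4.03 and 3.19 and Cd36 2.55, 2.63, 4.06 and 3.11, each highest on replicate 3, which also had the highest macrophage mean of the plastic arrays. Pparg (4.96, 4.15, 5.29 and 4.49) and Cebpa (6.43, 6.21, 6.54 and 6.37) were likewise highest on plastic replicate 3. Collagen I replicate 3 had the highest macrophage mean of its group but the lowest Fabp4 (2.67, dim), Pparg (4.47) and Cebpa (5.79). Its Cd36 (3.72, dim) was the highest of the group, and its Plin2 lay between the others. A called gene with no list of its own, C5ar1, the complement C5a receptor of myeloid cells, read 7.58 and 7.66 on Matrigel and 5.79, 5.89 and 6.72 on collagen I (1.49 ± 0.30, adjusted p = 0.0421). C5ar1 kept the call only without collagen I replicate 3 or plastic replicate 3 with 1 array left out (adjusted p 0.053 to 0.145 otherwise). A test of every row of the table also ended the call of C5ar1.

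**Figure D4:**
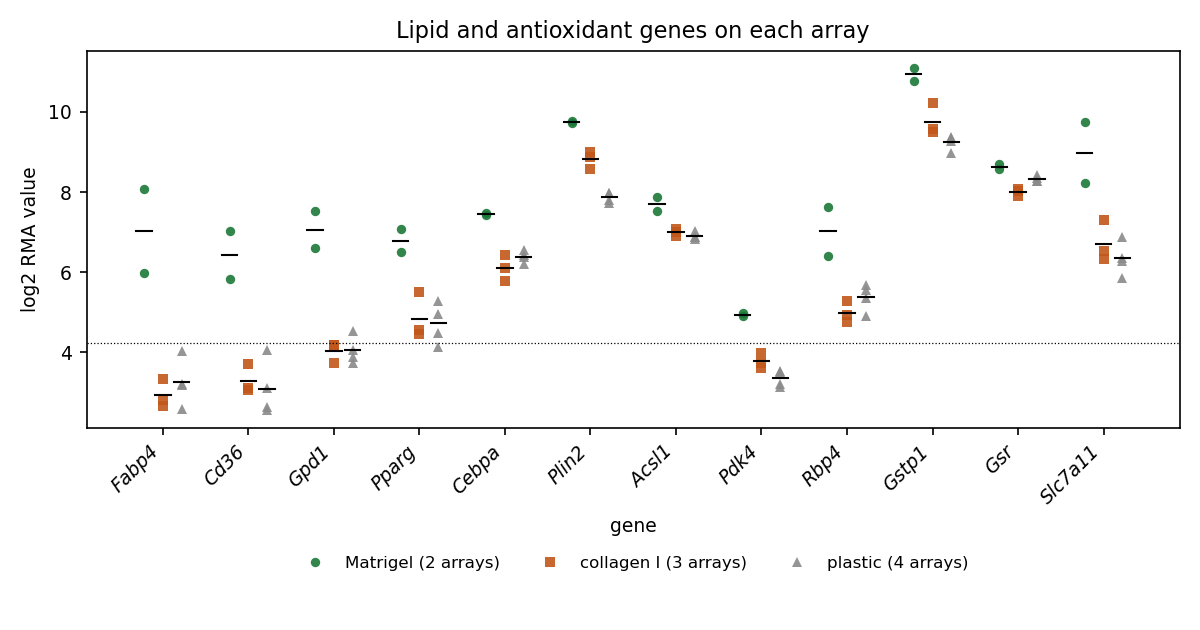
Log2 RMA values (vertical axis) of 12 lipid, retinoid and antioxidant genes on each array, with Matrigel as circles, collagen I as squares, plastic as triangles, short lines for group means and a dotted line at the dim level of 4.25. In every gene the Matrigel points lie above all collagen I points, and the collagen I points of Fabp4, Cd36, Gpd1 and Pdk4 fall under the dotted line.

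Some antioxidant genes were called higher on Matrigel. Of 41 measured NRF2 targets and antioxidant genes 6 were called higher and 0 lower, against 1.21% and 1.45% of all genes. The median was 0.26, and 32 of 41 differences were positive, against 6548 of all 14506. With the title letter as a fixed block 0 genes of this list were called. Gsr, the reductase that regenerates glutathione, read 8.58 and 8.69 on Matrigel and 7.90, 8.07 and 8.03 on collagen I (0.64 ± 0.08, adjusted p = 0.0138) and passed in all 9 fits that left out 1 array. Slc7a11, the cystine importer for glutathione synthesis, was 9.74 and 8.23 and 6.32, 6.53 and 7.29, with a wide spread within each surface (2.27 ± 0.46, adjusted p = 0.0432). Gstp1, a glutathione transferase, read 11.10 and 10.78 and 9.57, 9.49 and 10.21 (1.18 ± 0.22, adjusted p = 0.0328), and plastic was below both, from 8.97 to 9.37. Tkt, the transketolase of the pentose phosphate pathway (0.53 ± 0.08, adjusted p = 0.0188), and Gsta4 (0.91 ± 0.18, adjusted p = 0.0394) were also called, and Akr1b10 was dim on both surfaces. Tkt lost the call without Matrigel replicates 1 or 2 or collagen I replicate 2 (adjusted p 0.059 to 0.0697). Slc7a11 kept the call only without Matrigel replicate 2, Gstp1 only without collagen I replicate 3 or plastic replicate 2, Gsta4 only without plastic replicates 3 or 4 and Akr1b10 only without Matrigel replicate 2 or plastic replicate 3 with 1 array left out (adjusted p 0.0501 to 0.146 otherwise). A test of every row of the table also ended the call of Slc7a11, Gsta4 and Akr1b10 and array weights ended the call of Gsta4 and Akr1b10. Without Matrigel replicate 1 or collagen I replicate 2 the list held 1 called member, against 2 without plastic replicate 1, and from 3 to 5 without any other single array. The classic NRF2 target Nqo1 did not pass, and collagen I replicate 3 lay between the Matrigel arrays (11.02 and 10.31 on Matrigel; 8.90, 8.92 and 10.49 on collagen I; 1.23 ± 0.48, adjusted p = 0.242), and Gclm and Txnrd1 overlapped between surfaces.

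NRF2 acts through the antioxidant response element, searched here as TGACNNNGC on both strands of RefSeq promoter windows (GRCr8) from 250 bases before to 50 after each start. The element was present in 11 of the 35 list members with a window (31.4%) and in 1647 of 11968 tested genes (13.8%), and of the 5 called members with a window only Gstp1 held it. The Gstp1 stretch at chr1:210769702-210769821 (minus strand) is shown because it carries that match, in capitals, which also holds the AP-1 letters TGACTCA.
Gstp1: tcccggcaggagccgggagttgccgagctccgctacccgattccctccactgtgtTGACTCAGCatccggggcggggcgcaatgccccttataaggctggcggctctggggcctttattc
The match starts 61 bases before the annotated start. It describes the sequence only, and no binding was measured. The TEAD motif GGAATG, searched likewise for YAP, was in 42.9% of the 21 YAP and SRF members with a window, against 12% of all. The AP-1 motif was in 20% of the 35 proteases and inhibitors with a window, against 3.83% of all. Only 2 called genes of each list had a window, and 0 of them held the motif, which is too few to compare with these shares.

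Asns, Psat1 and Slc7a5, which serve amino acid synthesis and import, were the called members of another list. In the unfolded protein and ATF4 list 3 of 33 measured genes were called lower and 0 higher, against 1.45% and 1.21% of all genes. The list median was -0.13. Asns, the asparagine synthetase, read 6.57 and 7.11 on Matrigel and 7.87, 8.06 and 8.18 on collagen I (-1.20 ± 0.16, adjusted p = 0.0138). Psat1, of serine synthesis, read 7.28 and 7.59 and 9.06, 9.06 and 9.96, with collagen I replicate 3 the highest array of all (-1.92 ± 0.30, adjusted p = 0.0176), and Slc7a5, the importer of large neutral amino acids, was lower by a smaller amount (-0.92 ± 0.19, adjusted p = 0.0425). Asns lost the call without collagen I replicate 2 and Psat1 without Matrigel replicates 1 or 2 or collagen I replicate 2 (adjusted p 0.0501 to 0.0857). Slc7a5 kept the call only without Matrigel replicate 1 or collagen I replicate 1 with 1 array left out (adjusted p 0.0527 to 0.166 otherwise). Array weights, a test of every row of the table and repeated quantile normalization also ended the call of Slc7a5. The list held 0 called members without collagen I replicate 2 and 2 or 3 without any other single array. The chaperone gene Hspa5, which reports stress of the endoplasmic reticulum, read 11.92 and 11.99 and 11.96, 11.99 and 12.01 (interval of the difference from -0.21 to 0.14), and Atf4 itself did not pass (-0.80 ± 0.24, adjusted p = 0.132).

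Several broad programmes gave few or no calls. The counts called by limma were 0 of 45 cell cycle and DNA replication genes (median -0.22, 3 at an unadjusted p under 0.05), 0 of 44 interferon-induced genes (median -0.27, 5 at that level), 0 of 36 cholesterol and fatty acid synthesis genes (median -0.12, 8) and 0 of 33 lysosome genes (median 0.08, 6). Over all 14506 genes 2.67% were called and 2456 were at that level. Differences were negative in 39 cell cycle, 34 interferon, 22 cholesterol and 13 lysosome genes, against 7949 of all genes. The cell cycle list mean was 7.77 and 7.34 on Matrigel and 7.72, 7.66 and 7.90 on collagen I, so only Matrigel replicate 2 lay below collagen I. The list mean of the interferon genes was 6.31 and 6.75 on Matrigel and 7.20, 6.64 and 6.63 on collagen I, replicate 1 on collagen I being the highest. Of 37 glycolysis and hypoxia genes the glucose transporter gene Slc2a3 (-1.05 ± 0.20, adjusted p = 0.0345) and the phosphofructokinase gene Pfkm (-0.43 ± 0.07, adjusted p = 0.0251) were called lower, and of 20 heat shock genes Hspb8 (-0.73 ± 0.13, adjusted p = 0.0316). Pfkm lost the call without Matrigel replicate 1 or collagen I replicates 1, 2 or 3 (adjusted p 0.0536 to 0.0921). Slc2a3 kept the call only without Matrigel replicate 2 and Hspb8 only without collagen I replicate 1 or plastic replicate 3 with 1 array left out (adjusted p 0.0501 to 0.117 otherwise). Without Matrigel replicate 1 the measured difference of Slc2a3 was -0.67 in place of -1.05.

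Some exocrine and endocrine pancreas genes were higher on Matrigel, with replicate 1 the higher of the pair. Of 22 measured islet genes 20 had a positive difference, against 6548 of all 14506 genes, and the median was 0.97. By limma 3 were called higher and 0 lower, against 1.21% and 1.45% of all genes. The list mean was 6.52 and 5.55 on the Matrigel arrays, 5.17, 4.92 and 4.72 on the collagen I arrays and 5.13, 4.70, 4.85 and 4.58 on plastic. Scg2, a granin of secretory granules, read 8.03 and 6.63 and 5.57, 4.98 and 4.92 (2.18 ± 0.45, adjusted p = 0.0449), Scg3 was at least 0.25 higher (adjusted p = 0.0138) and the glucose transporter gene Slc2a2 at least 0.17 (adjusted p = 0.0313). The hormone genes did not pass. Ins2 was 11.19 and 10.02 on Matrigel and 9.69, 8.98 and 8.64 on collagen I (1.50 ± 0.54, adjusted p = 0.202), Gcg 11.49 and 10.08 and 9.85, 8.59 and 8.06 (1.95 ± 0.75, adjusted p = 0.231), and Ppy, the pancreatic polypeptide gene, 9.42 and 7.58 and 6.28, 5.95 and 6.39 (2.30 ± 0.49, adjusted p = 0.0509). Scg3 lost the call without collagen I replicate 2 (adjusted p = 0.0501). Scg2 kept the call only without Matrigel replicate 2 and Slc2a2 only without Matrigel replicate 2 or plastic replicate 3 with 1 array left out (adjusted p 0.0549 to 0.155 otherwise). Array weights and a test of every row of the table also ended the call of Scg2. Without Matrigel replicate 1 the measured difference of Slc2a2 was 0.94 in place of 1.48. Without Matrigel replicate 2, which left replicate 1 alone on Matrigel and assumed to vary like the other groups, 12 islet genes were called, whereas 1 was called without Matrigel replicate 1, 0 without collagen I replicate 2, and 1 or 2 without any other single array.

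Among 30 acinar genes 2 were called higher, against 1.21% of all genes, with a median of 0.28. The chymotrypsinogen gene Ctrb1 read 10.42 and 8.13 on Matrigel and 5.89, 6.21 and 5.17 on collagen I (3.52 ± 0.59, adjusted p = 0.0239), and the carboxypeptidase gene Cpa1, dim on collagen I, was at least 1.63 higher (adjusted p = 0.0357). Ctrb1 lost the call without collagen I replicates 1, 2 or 3 or plastic replicate 1 (adjusted p 0.0548 to 0.0623). Cpa1 kept the call only without Matrigel replicate 2 with 1 array left out (adjusted p 0.0539 to 0.09 otherwise). Without Matrigel replicate 1 the measured difference of Cpa1 was 1.65 in place of 2.70. Without Matrigel replicate 2, 9 acinar genes were called, and 0 or 1 without any other single array. Whether the islet and acinar RNA bears on the genes reported above was not tested. Markers of other cells gave 0 called of 21 duct and epithelial genes, 18 lymphocyte genes, 13 MHC class II and dendritic genes, 14 mesothelial genes and 12 mast cell and erythroid genes, with 3 duct genes and 1 mesothelial gene called without Matrigel replicate 2. The 1 endothelial call was Tie1 (0.96 ± 0.16, adjusted p = 0.0251), while Cdh5 and Pecam1, which define endothelium, were dim on every array. The 1 call of the Schwann list was the myelin gene Pmp22 (-0.45 ± 0.09, adjusted p = 0.0453), and the 1 pericyte call was Des. The endothelial, Schwann and pericyte lists held 20, 17 and 18 measured genes, and 2.67% of all genes were called. Tie1 lost the call without Matrigel replicate 2, collagen I replicates 1, 2 or 3 or plastic replicate 1 (adjusted p 0.0573 to 0.104). Pmp22 kept the call only without Matrigel replicate 2 with 1 array left out (adjusted p 0.0544 to 0.149 otherwise). Array weights, a test of every row of the table and repeated quantile normalization also ended the call of Pmp22.

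**Figure D5:**
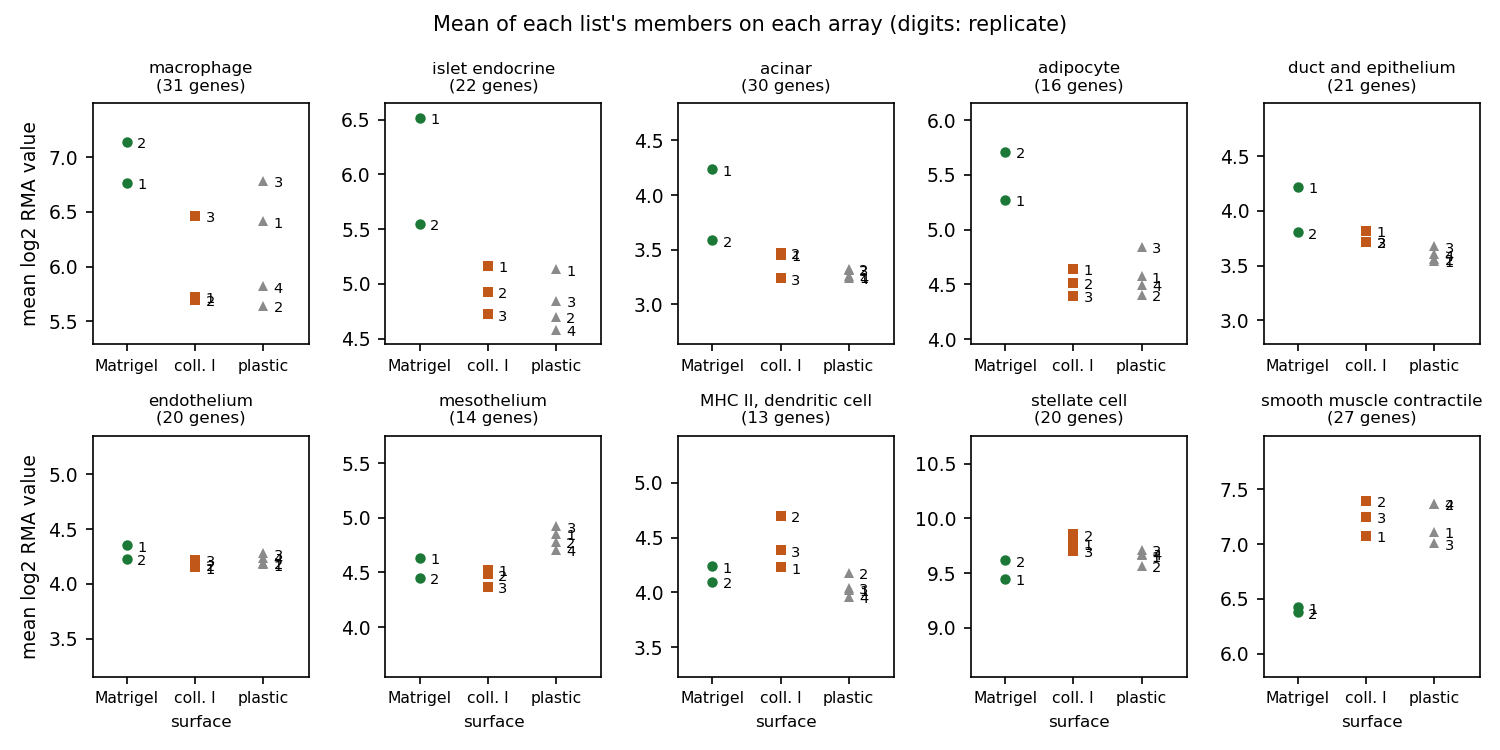
Each panel plots the mean log2 RMA value of a list's members (vertical axis, 2.2 log2 units in every panel) on each array by surface, with digits for the replicate. The macrophage, islet, acinar and adipocyte means are higher on both Matrigel arrays than on every collagen I array, with Matrigel replicate 1 highest for islet and acinar genes and replicate 2 for macrophage and adipocyte genes, and the contractile mean is lowest on the 2 Matrigel arrays.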

How the data were processed

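Expression was measured on 9 arrays of rat pancreatic stellate cells, and the deposited values, in log2 units, are RMA expression values, per the submitters' processing notes. Which program ran RMA, and on which build, is not given in the sources used here. No further normalization was applied for the reported results. Of 29215 rows, 15310 carried 1 gene symbol in the array's probe table, 323 several and 13582 none. Where a gene had several rows, the brightest by its mean on the 9 arrays stood for it, so that 804 rows were dropped and 14506 genes remained. Some probe sets may read close paralogs too.

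The fit used limma 3.58.1 (R 4.3.3) on all 9 arrays with 1 mean per surface, without trend, and p-values were adjusted by Benjamini-Hochberg over all genes within the comparison, with a two-sided call at 0.05. The fit was tested on simulated data. The 37 gene lists (24 pathway and 13 marker lists, 1120 entries with a tested gene) and the naming rule were chosen with earlier results of these data known, and lists are described by counts and medians without a set test. The rule named the 15 largest called differences in each direction, up to 6 called members of a pathway list and up to 4 of a marker list, all matrix receptors and all stellate cell genes. Cald1, Csrp2, Klf2, Ier5, Pnpla2, Plin3, Cfd and all genes named that did not pass, other than matrix receptors and stellate cell genes, were chosen after their values were seen. Alternatives were array weights, re-centring, repeated quantile normalization, other choices of rows and filters, only the 2 compared groups, trend and robust moderation, a 2-fold minimum, the title letter as a block, and leaving out each array. Where a group mean was dim, the difference is a lower bound, the brighter mean less the dim group's mean with each dim array at the higher of its value and log2 4.25.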

Additional observations from a re-analysis of the deposited data

How the results depend on the processing

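No call among the 387 changed its sign under any alternative that was run. The numbers of genes called, higher and lower kept within 1.5 times the values reported (387, 176 and 211) with re-centring, the mean of a gene's rows, genes above the dim level only, repeated quantile normalization, trend and robust moderation, and the title letter as a random block. Array weights gave 257 called and 116 higher, and a test of every row of the table gave 265 higher. Requiring a 2-fold difference left 98, 37 and 61. A fit on the Matrigel and collagen I arrays alone called 0, 0 and 0 genes. All 387 had an unadjusted p under 0.05 there. Leaving out 1 array gave between 68 and 352 called, between 24 and 151 higher, and between 44 and 201 lower. The lowest counts came without collagen I replicate 2. Only the letter A is shared by the compared surfaces, so the letters were not taken to pair the samples. Deviations from the surface means correlated over genes at -0.12 between the A arrays on Matrigel and collagen I. Between Matrigel and plastic they correlated at -0.13 for A and 0.41 for S. The 2 Matrigel arrays deviate from their mean by equal and opposite amounts, so these values cannot decide whether the letter pairs arrays. Between collagen I and plastic, arrays of the same letter correlated at 0.20 for A, 0.23 for P and 0.27 for Z. Arrays of different letters correlated at -0.24 to 0.01, apart from A on collagen I with S on plastic at 0.24. The title letter as a fixed replicate block called 66, 15 and 51 genes, 51 of them among the 387, and the random block, at a consensus correlation of 0.153, called 464 genes, 386 of them among the 387. Of the 129 genes covered by the naming rule, 87 were called in the main fit, and 61 of these lost the call under the fixed block. That block called 5 immediate-early genes, 5 of the ATF4 list, 4 contractile genes, 4 lipid genes, 2 islet genes, 1 focal adhesion gene, 1 YAP and SRF target, 1 of the proteoglycan and elastic fibre list, and 0 NRF2, TGF-beta and BMP, cytokine, collagen-processing or acinar genes. Between the A arrays alone, with no test, the difference of 44 of the 129 departed from the fit by more than the spread within a surface, with Pparg at 0.99 in place of 1.94 and Fabp4 at 2.63 in place of 4.09. Dim genes carry lower bounds only, and the number of arrays limits the precision.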

Other observations

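Of the 387 called genes, 306 stand in none of the gene lists. A set of metabolic and transport genes among them, singled out after their values were seen, was lower on Matrigel like Asns and Psat1. Slc7a1, the importer of cationic amino acids, read 5.90 and 6.18 on Matrigel and 7.17, 7.65 and 7.86 on collagen I (-1.52 ± 0.20, adjusted p = 0.0138, limma). Aldh18a1, of proline synthesis, read 8.31 and 8.21 and 9.12, 9.13 and 9.29 (-0.92 ± 0.09, adjusted p = 0.00469), and Mthfd2, of mitochondrial folate metabolism, 7.37 and 7.24 and 8.30, 8.58 and 8.79 (-1.25 ± 0.17, adjusted p = 0.0145). Aldh18a1 passed in all 9 fits that left out 1 array. Slc7a1 lost the call without Matrigel replicate 1 or collagen I replicate 2 and Mthfd2 without Matrigel replicates 1 or 2 or collagen I replicate 2 (adjusted p 0.0501 to 0.0568).

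Other genes in no list that passed in all 9 of those fits, also chosen after their values were seen, included the caveolar coat gene Cavin1 (-0.96 ± 0.10, adjusted p = 0.00815), the bridging glycoprotein gene Mfge8 (-1.01 ± 0.09, adjusted p = 0.00469), the matrix remodelling gene Mxra8 (-1.06 ± 0.13, adjusted p = 0.0102) and Vgll4, a cofactor that competes with YAP for TEAD (-1.28 ± 0.09, adjusted p = 0.0038). Higher on Matrigel were the Wnt receptor gene Fzd3 (1.00 ± 0.08, adjusted p = 0.0038), the kinase genes Hipk2 (1.42 ± 0.16, adjusted p = 0.00891) and Sik2 (0.77 ± 0.10, adjusted p = 0.0114), the lipolysis-linked gene Abhd15 (1.08 ± 0.13, adjusted p = 0.0112) and Rsrp1, an arginine and serine-rich protein gene (1.31 ± 0.11, adjusted p = 0.0038). Hipk2 read 7.64 and 8.05 on Matrigel, 6.52, 6.58 and 6.17 on collagen I and from 7.65 to 7.97 on plastic, so the collagen I arrays were the low ones. Fzd3 read 6.31 and 6.33, 5.38, 5.33 and 5.26 and from 5.19 to 5.38, so there the Matrigel arrays were the high ones.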
